A study of Homo sapiens with 12 samples.

Results

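Hypoxia was set against normoxia across all 12 libraries of sorted KG1a cells, with the effect shared by both sorted subsets estimated in a single model. The cell line KG1a, long established, descends from a human acute myeloid leukaemia and has kept features of immature blood progenitors. All cells were wild type, positive for CD34 and grown in RPMI medium with 20% fetal bovine serum, and they were sorted into cells dim for both CD38 and CLL-1 (dim) and cells bright for both (bright). Each subset was kept either in normoxia or in hypoxia at 3% oxygen, with 3 libraries in each of the 4 groups, so that 6 hypoxic libraries met 6 normoxic ones. How long the cells were kept in hypoxia is not given in the sources used here, and KG1a is the one cell line analysed here. A gene entered the comparison when its normalized value was at least 10 in at least 3 of the 12 libraries, which held for 15057 of the 28395 genes in the table.

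When oxygen is plentiful, prolyl hydroxylases of the EGLN family mark the alpha subunits of the hypoxia-inducible factors HIF-1 and HIF-2 for destruction by the VHL ubiquitin ligase. When oxygen is scarce, the alpha subunits escape this mark, pair with ARNT and bind short DNA elements with the core ACGTG or GCGTG. Their classical targets raise glucose uptake and glycolysis, growth of blood vessels, mitophagy and the uptake of iron, and blood progenitors of the bone marrow normally live at low oxygen.

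The deposited value of a gene is its read count divided by a size factor of the library and rounded, and a level below is such a normalized value. Library sums of these values ran from 31828256 to 32560463, and the steps between them put the depth at an estimated 25200000 to 39500000 counted reads. Effects are log2(value + 1) of hypoxia minus normoxia, given with the standard error of limma, and folds are on that scale, which understates the change of low genes. Effects and calls within dim or bright cells come from a fit of 4 group means, which estimates the spread over all 12 libraries. The threshold for passing was a 2-sided p under 0.05 after Benjamini-Hochberg adjustment over all genes tested. Whether replicates came from separate cultures is not stated in the labels, so p-values measure the spread between these libraries. In bulk RNA, fewer cells of a type and less RNA per cell cannot be told apart.

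Some libraries held transcripts of other cell types, and these were uneven between hypoxia and normoxia. The summed level of 18 airway epithelium markers lay between 206 and 7312 in normoxia and between 75 and 18968 in hypoxia, with high sums in normoxic bright replicates 1 and 2 and in hypoxic dim replicates 2 and 3, and with SCGB1A1 at 0 in every library. The sum of 18 skeletal muscle markers lay between 190 and 4364 in normoxia, where normoxic dim replicates 1 to 3 and normoxic bright replicate 1 were high, and between 151 and 395 in hypoxia. The sum of 8 fibroblast markers lay between 1512 and 8361 in normoxia and between 904 and 1999 in hypoxia. The sum of 10 neutrophil granule markers lay between 70 and 1756 in normoxia and between 44 and 15138 in hypoxia, hypoxic dim replicate 1 being the high one, with DEFA3 and DEFA4 at 0. Melanocyte markers summed to 17 to 236 in normoxia and 7 to 86 in hypoxia, erythroid markers to 67 to 101 and 85 to 143 with HBA1, HBG1, HBG2 and AHSP at 0, and lymphoid markers to 11513 to 19019 and 13316 to 16733. The airway sum never exceeded 0.0584% of a library. No gene of these lists passed the pooled test, but 11 of 15 tested muscle markers and 5 of 8 fibroblast markers were lower in hypoxia at an unadjusted p under 0.05, as were 3.98% of all genes tested. Their part in single results was not tested, and counts without the libraries highest in them are given beside the main count.

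**Figure D1:**
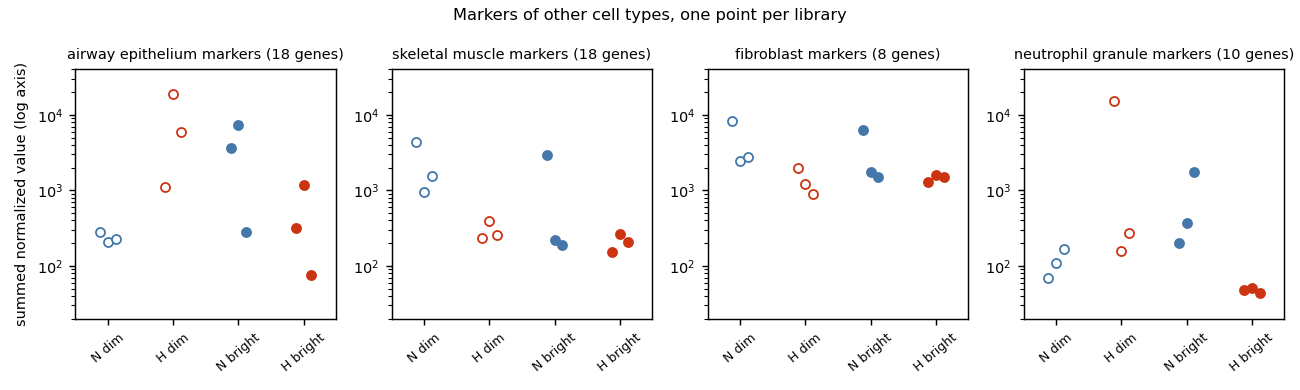
Summed normalized value of 4 marker lists of other cell types, on a log axis, with 1 point for each of the 12 libraries in normoxia (N, blue) and hypoxia (H, red); open points are dim cells and filled points bright cells. Muscle markers reached 4364 in normoxia and at most 395 in hypoxia, and airway markers were highest in a hypoxic dim library at 18968.

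CD34, for which all sorted cells were positive, was abundant, with levels between 17184 and 32370. CD34 did not pass between hypoxia and normoxia (0.01 ± 0.06), nor did CLEC12A, the gene of CLL-1, whose levels lay between 9 and 40 (0.28 ± 0.41). Mean levels of CLEC12A were 18.3 in normoxic dim, 21.0 in hypoxic dim, 13.3 in normoxic bright and 20.3 in hypoxic bright libraries. At these low levels the mean of its RNA was not higher in bright than in dim cells. CD38, which encodes an enzyme that consumes NAD and was used for the sort, had levels of 6, 7 and 2 in normoxic dim, 25, 9 and 13 in hypoxic dim, 67, 82 and 60 in normoxic bright and 125, 139 and 161 in hypoxic bright cells. Its hypoxic libraries were thus above the normoxic ones in each subset, and the pooled effect was 1.25 ± 0.30 (limma, adjusted p = 0.178). The sort set the range of CD38 on the cell surface within each subset at the time of sorting.

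In the pooled test 15 genes passed, 12 of them higher in hypoxia and 3 lower. The rises were led by the miR-210 host transcript MIR210HG, the ankyrin repeat gene ANKRD37 and the long non-coding RNA LINC01088. Another 8 of the 12, among them the angiogenic growth factor VEGFA, rose less than 1.5-fold. The falls were those of the transferrin receptor TFRC, the anoctamin ANO3 and the protease inhibitor SERPINA3. The 15 genes are 0.0996% of the genes tested, the 12 higher ones 0.0797% and the 3 lower ones 0.0199%. At an unadjusted p under 0.05 stood 1309 genes (8.69%), of which 709 (4.71%) were higher and 600 (3.98%) lower in hypoxia, with a median standard error of 0.10 over all genes.

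The pooled count depended on single libraries. It was 9 without normoxic dim replicate 2 or replicate 3, 6 without normoxic bright replicate 1, 8 without normoxic bright replicate 2 and 6 without normoxic bright replicate 3. It was also 6 when hypoxic dim replicate 2 or hypoxic bright replicate 1 was left out, and 3 when hypoxic bright replicate 2 was. The count was 13 without normoxic dim replicate 1 and 10 without hypoxic bright replicate 3. It was 19 without hypoxic dim replicate 1 and 18 without hypoxic dim replicate 3. Without the pair of libraries highest in neutrophil granule markers 12 genes passed. Without the pair of libraries highest in airway markers 3 genes passed, and without the pair highest in muscle markers 2 passed. TFRC and LINC01088 passed in both of the latter fits, with effects of -0.89 and 1.24 and of -0.88 and 1.26.

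Because HIF binds the cores ACGTG and GCGTG, the promoters of the 3 strongest rises, of the falling gene TFRC and of NARF, a rising gene rich in these cores, are printed here. Each is 300 bases 5′ to 3′ on the gene's own strand, from 250 bases before the RefSeq start to 50 after it (GRCh38.p14), and capitals mark ACGTG or GCGTG on either strand, so that CACGT and CACGC are the same cores read on the other strand and CACGTG holds ACGTG on both. 
MIR210HG, chr11:568408-568707, minus strand: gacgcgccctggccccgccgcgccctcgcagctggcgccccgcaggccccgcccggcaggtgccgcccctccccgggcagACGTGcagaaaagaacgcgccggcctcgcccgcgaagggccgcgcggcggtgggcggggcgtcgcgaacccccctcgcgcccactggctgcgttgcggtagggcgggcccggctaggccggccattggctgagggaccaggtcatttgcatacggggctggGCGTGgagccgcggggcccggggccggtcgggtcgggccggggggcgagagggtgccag
ANKRD37, chr4:185396591-185396890, plus strand: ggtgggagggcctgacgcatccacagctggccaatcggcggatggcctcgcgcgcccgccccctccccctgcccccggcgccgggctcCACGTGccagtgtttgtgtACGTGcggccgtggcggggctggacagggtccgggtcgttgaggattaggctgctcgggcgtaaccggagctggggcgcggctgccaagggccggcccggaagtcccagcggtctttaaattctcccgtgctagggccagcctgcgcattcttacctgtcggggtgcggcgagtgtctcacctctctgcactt
NARF, chr17:82457948-82458247, plus strand: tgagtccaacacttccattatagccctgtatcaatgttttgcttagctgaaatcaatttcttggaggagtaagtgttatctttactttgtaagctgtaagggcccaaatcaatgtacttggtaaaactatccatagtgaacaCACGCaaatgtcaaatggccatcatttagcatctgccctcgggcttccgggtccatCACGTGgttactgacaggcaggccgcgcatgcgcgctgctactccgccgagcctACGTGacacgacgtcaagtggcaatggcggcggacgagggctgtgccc
LINC01088, chr4:78971498-78971797, plus strand: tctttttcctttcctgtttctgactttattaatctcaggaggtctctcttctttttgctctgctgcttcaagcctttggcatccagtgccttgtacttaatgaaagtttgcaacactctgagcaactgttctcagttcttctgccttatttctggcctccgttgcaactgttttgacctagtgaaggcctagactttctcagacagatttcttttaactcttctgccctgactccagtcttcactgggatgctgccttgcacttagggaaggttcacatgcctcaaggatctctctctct
TFRC, chr3:196082041-196082340, minus strand: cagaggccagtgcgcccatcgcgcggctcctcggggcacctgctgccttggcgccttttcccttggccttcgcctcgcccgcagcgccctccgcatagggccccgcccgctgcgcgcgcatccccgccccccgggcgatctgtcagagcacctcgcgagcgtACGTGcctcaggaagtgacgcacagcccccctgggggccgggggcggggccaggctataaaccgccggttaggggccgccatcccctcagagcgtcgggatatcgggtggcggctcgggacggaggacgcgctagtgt

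The MIR210HG window holds an ACGTG beginning 170 bases and a GCGTG beginning 9 bases before the start. In ANKRD37 a palindromic CACGTG begins 162 bases before the start and a further ACGTG 143 bases before it. NARF, a gene for a protein that binds prelamin A, has a GCGTG on the other strand beginning 108 bases before the start, a CACGTG beginning 52 bases before it and another ACGTG within the first bases after it. The LINC01088 window has neither core, and that of the falling gene TFRC has an ACGTG 88 bases before the start. Among the genes that rose, 9 of 12 had a promoter in the table, and 4 of these (44.4%) held ACGTG against 26.3% of the 11643 promoters of genes tested and 21.6% of all 27305 promoters. Either core was in 44.4% of the promoters of the rising genes and in 62.0% of those of all genes tested. Of the 29 promoters of the HIF target list described below, 62.1% held ACGTG and 82.8% either core, with a median of 29 CG pairs per window against 26 over the genes tested. These are matches of letters and say nothing about binding in these cells.

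**Figure D2:**
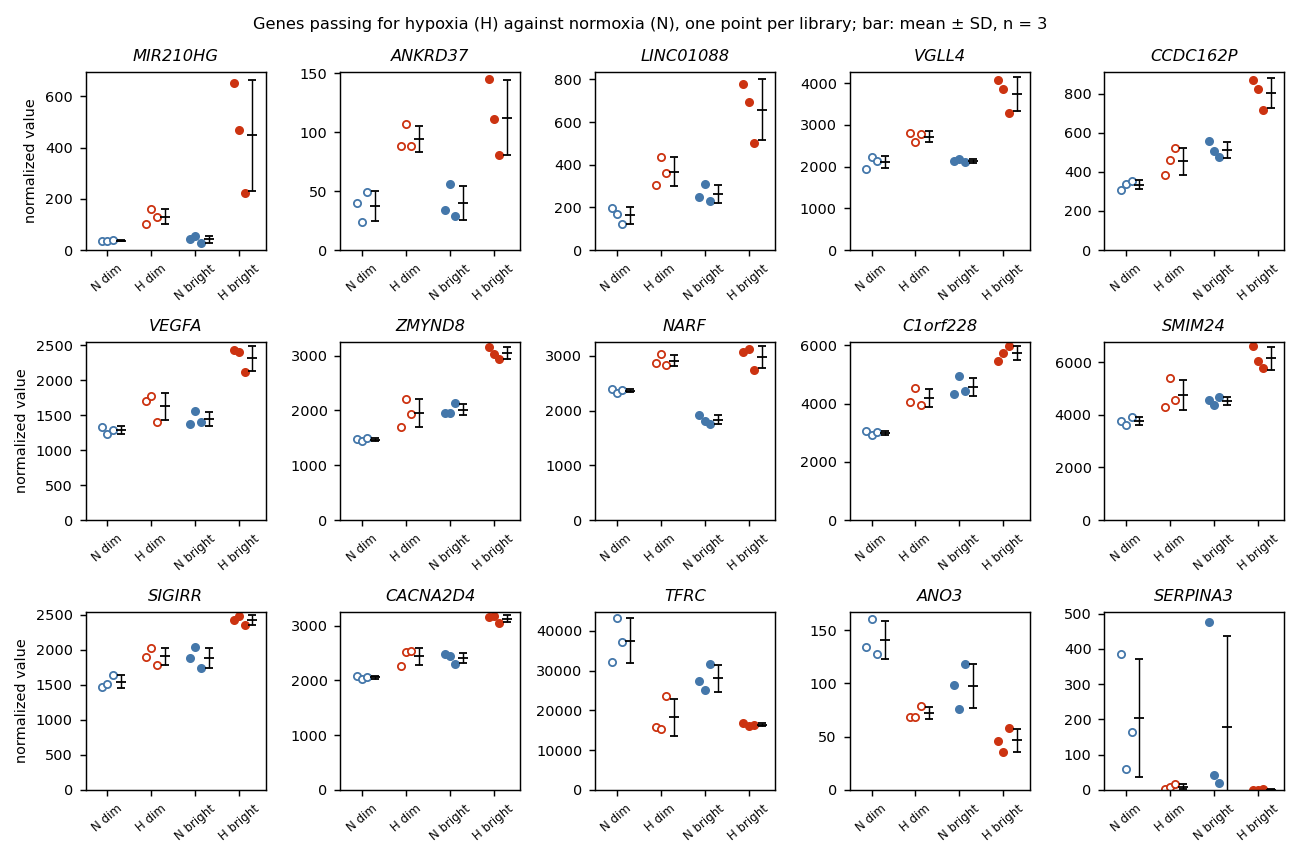
Normalized value of the 15 genes that passed, on linear axes from 0, with 1 point per library for normoxic (N, blue) and hypoxic (H, red) dim (open) and bright (filled) cells; the bar is the mean ± SD of 3 libraries. In each gene and subset the hypoxic and normoxic libraries are apart, and MIR210HG runs from 29 to 55 in normoxia and from 101 to 652 in hypoxia.

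MIR210HG (chromosome 11, 565657 to 568457, hg38), from which the hypoxia-induced microRNA miR-210 is processed, was at 34, 37 and 38 in normoxic dim and 43, 55 and 29 in normoxic bright libraries. In hypoxia it was at 101, 161 and 130 in dim and at 652, 471 and 222 in bright libraries. Each hypoxic library was above each normoxic one, and MIR210HG rose 5.82-fold (2.54 ± 0.31, limma, adjusted p = 0.0072). In dim cells the effect was 1.79 ± 0.34 against 3.29 ± 0.34 for bright cells, but these did not pass as different (adjusted p = 0.10).

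ANKRD37 (chromosome 4, 185396686 to 185400243), known as a HIF-1 target, was at 40, 24 and 49 in normoxic dim and 34, 56 and 29 in normoxic bright libraries, against 88, 107 and 88 in hypoxic dim and 145, 111 and 81 in hypoxic bright libraries. The hypoxic and normoxic values did not overlap, and ANKRD37 rose 2.68-fold (1.42 ± 0.22, limma, adjusted p = 0.0287). The effects in dim (1.35 ± 0.32) and bright cells (1.5 ± 0.32) lay within their errors of each other. Its exons share 674 bases with UFSP2 and 250 with LRP2BP on the opposite strand. Without a stated strand of counting, reads of these genes cannot be told apart with certainty.

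LINC01088 (chromosome 4, 78971748 to 79308799) was at 196, 169 and 121 in normoxic dim and 304, 437 and 363 in hypoxic dim libraries, and at 250, 311 and 231 in normoxic bright and 779, 694 and 500 in hypoxic bright libraries. LINC01088 rose 2.37-fold (1.25 ± 0.15, limma, adjusted p = 0.0072). In the fit of 4 group means LINC01088 and TFRC were the 2 of the 15 genes that passed in each subset. LINC01088 had effects of 1.19 ± 0.21 in dim and 1.30 ± 0.21 in bright cells. In a fit of the dim libraries alone neither LINC01088 nor TFRC passed.

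VEGFA (chromosome 6, 43770209 to 43786487), which drives growth of blood vessels, was at 1335, 1231 and 1294 in normoxic dim and 1701, 1771 and 1405 in hypoxic dim libraries. In bright cells it was at 1378, 1563 and 1408 in normoxia and at 2427, 2398 and 2113 in hypoxia. VEGFA rose 1.42-fold (0.50 ± 0.08, limma, adjusted p = 0.0347), with effects of 0.33 ± 0.10 in dim and 0.67 ± 0.10 in bright cells. The lowest hypoxic dim level lay within the range of the normoxic bright ones, while within each subset the libraries were apart.

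The other rises were between 1.24-fold and 1.5-fold. VGLL4 (chromosome 3, 11556067 to 11720768), a cofactor that binds TEAD transcription factors and opposes YAP, had levels of 1946, 2235 and 2127 in normoxic dim, 2800, 2582 and 2787 in hypoxic dim, 2126, 2186 and 2106 in normoxic bright and 4087, 3867 and 3283 in hypoxic bright libraries. VGLL4 rose by 0.59 ± 0.08 (limma, adjusted p = 0.0176), and 1599 bases of its exons are shared with ATG7 on the opposite strand. ZMYND8 (chromosome 20, 47209214 to 47356889), a reader of acetylated histones, rose from 1486, 1434 and 1490 to 1705, 2218 and 1937 in dim and from 1959, 1959 and 2131 to 3166, 3038 and 2938 in bright libraries (0.50 ± 0.07). Its exons share 83 bases with LOC100131496 on the opposite strand.

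NARF (chromosome 17, 82458184 to 82488267) rose by 0.50 ± 0.07 (limma, adjusted p = 0.0208). Its levels were 2390, 2329 and 2384 in normoxic dim and 1920, 1819 and 1763 in normoxic bright libraries, and in hypoxia they were 2878, 3035 and 2831 in dim and 3069, 3126 and 2744 in bright libraries. NARF was lower in bright than in dim cells in normoxia and overlapped between them in hypoxia, with effects of 0.30 in dim and 0.70 in bright cells. The adjusted p of that difference, 0.0525, was the lowest among the 15 genes.

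SMIM24 (chromosome 19, 3474407 to 3480542), a small membrane protein gene of the 17-gene stem cell score of leukaemia, rose by 0.38 ± 0.06, from 3625 to 3918 in normoxic dim to 4301 to 5394 in hypoxic dim, and from 4384 to 4683 to 5777 to 6629 in bright libraries. SIGIRR (chromosome 11, 405716 to 417454), a brake on interleukin-1 and Toll-like receptor signalling, rose by 0.33 ± 0.06, with normoxic levels of 1470 to 2030 and hypoxic levels of 1784 to 2485. CACNA2D4 (chromosome 12, 1791957 to 1920865), an auxiliary calcium channel subunit, rose by 0.31 ± 0.05, with levels of 2022 to 2478 in normoxia and 2258 to 3174 in hypoxia. C1orf228 (chromosome 1, 44674694 to 44725591) rose by 0.40 ± 0.06, with a larger effect in dim (0.48) than in bright cells (0.33), and its difference between subsets did not pass. CCDC162P (chromosome 6, 109294303 to 109308220), annotated as a pseudogene so that reads could come from a related copy, rose by 0.54 ± 0.09. Of these genes the hypoxic and normoxic ranges taken over both subsets overlapped, whereas within each subset they did not.

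TFRC (chromosome 3, 196049284 to 196082161), the receptor that brings transferrin-bound iron into cells, was at 32179, 43313 and 37181 in normoxic dim and 27347, 25184 and 31773 in normoxic bright libraries. In hypoxia it was at 15923, 15360 and 23623 in dim and at 16888, 16073 and 16242 in bright libraries. Each hypoxic library was below each normoxic one, and TFRC fell 1.88-fold (-0.91 ± 0.11, limma, adjusted p = 0.0072), by 1.05 in dim and by 0.77 in bright cells on the log2 scale. TFRC is a textbook HIF target, and its direction was opposite to the rises of MIR210HG, ANKRD37 and VEGFA.

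ANO3 (chromosome 11, 26188821 to 26668409), of the anoctamin family of membrane proteins, fell 2.0-fold (-1.0 ± 0.15, limma, adjusted p = 0.0287). Its levels of 134, 161 and 128 in normoxic dim and 99, 76 and 118 in normoxic bright libraries became 69, 69 and 79, and 46, 36 and 58, in hypoxia. Its exons share 1391 bases with SLC5A12 and 61 with MUC15 on the opposite strand.

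SERPINA3 (chromosome 14, 94612377 to 94624053), the secreted inhibitor alpha-1-antichymotrypsin, was at 386, 59 and 164 in normoxic dim, 477, 42 and 20 in normoxic bright, 3, 9 and 17 in hypoxic dim and 0, 1 and 3 in hypoxic bright libraries. The effect was -4.68 ± 0.73 (limma, adjusted p = 0.0287), and SERPINA3 was the gene among the 15 whose replicates differed over 4-fold within a group after 10 was added to each value. Its level was highest in normoxic bright replicate 1 and normoxic dim replicate 1, where the muscle marker sums were 2944 and 4364 and the fibroblast sums 6289 and 8361. With the sums of 3 marker lists as covariates the effect was -2.98 and did not pass (limma, adjusted p = 0.123). These lists were airway epithelium, skeletal muscle and neutrophil granules, without fibroblasts. The muscle sum itself reached 4364 in normoxia and at most 395 in hypoxia. That fit therefore cannot separate oxygen from marker content, and the cause was not tested. With a pseudocount of 10 the effect of SERPINA3 was -3.09.

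All 15 genes had hypoxic and normoxic libraries apart in each subset, and over all genes tested 147 (0.976%) were apart in both subsets upward and 80 (0.531%) downward. In the fit of 4 group means 13 of the 15 genes passed in bright cells and 3 in dim cells, where the background was 126 genes (0.837%) and 35 genes (0.232%). With the bright libraries alone 226 genes passed, 12 of the 15 among them, and with the dim libraries alone 13 passed, with 0 of the 15 among them. The bright effect was the larger in size in 13 of the 15 genes. These fits share libraries with the pooled one.

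Of the genes of the HIF pathway itself, none of the 11 tested passed with limma, and at an unadjusted p under 0.05 there were 2 higher and 2 lower, where 4.71% and 3.98% of all genes tested were. HIF1A, which encodes the alpha subunit of HIF-1, had levels of 2891 to 3823 in normoxia and 2693 to 3865 in hypoxia (-0.03 ± 0.09). EPAS1, which encodes the alpha subunit of HIF-2, was at 462, 408 and 413 in normoxic dim, 268, 435 and 306 in hypoxic dim, 1215, 906 and 925 in normoxic bright and 744, 802 and 727 in hypoxic bright libraries (-0.39 ± 0.11, limma, adjusted p = 0.278). The hypoxic bright libraries of EPAS1 were all below the normoxic ones, while the dim libraries overlapped.

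The partner subunit ARNT (0.05 ± 0.06), the ligase gene VHL (-0.03 ± 0.05) and the asparagine hydroxylase HIF1AN (-0.06 ± 0.09) had pooled effects near 0. That of HIF1AN was -0.26 in dim and 0.15 in bright cells. The HIF competitor CITED2 was lower at an unadjusted p under 0.05 (-0.13 ± 0.06), with -0.25 in dim and -0.01 in bright cells. Among the prolyl hydroxylases, EGLN1 was at 0.33 ± 0.11 (limma, adjusted p = 0.378), with levels of 1172 to 1408 in normoxia and 1219 to 2218 in hypoxia. EGLN2 was at -0.22 ± 0.22, with levels of 38 to 150. EGLN3, elsewhere a strong HIF target, was at 27, 6 and 28 and at 62, 67 and 4 in normoxia and at 4, 271 and 43 and at 3, 31 and 2 in hypoxia (-0.40 ± 1.04), a scatter within groups larger than any difference between them. ARNT2 scattered likewise, between 1 and 49 (-0.69 ± 0.70). P4HTM, a transmembrane prolyl hydroxylase, had hypoxic libraries above the normoxic ones in each subset at a small effect (0.15 ± 0.07). HIF3A was too low to test, with levels of 0 to 19.

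A list of 23 genes of glucose uptake and glycolysis was then described. None passed in the pooled limma test. At an unadjusted p under 0.05, 10 were higher and 0 lower, where 4.71% and 3.98% of all genes tested were. Positive effects were seen in 20 of 23, and in 7310 of all 15057 genes, with a median of 0.18 against -0.0044 over all genes tested. The median was 0.07 in dim and 0.35 in bright cells. In bright cells 4 of the 23 rose in the fit of 4 group means, namely PFKFB4, LDHA, SLC16A3 and SLC2A3, where 0.478% of all genes tested did, and 2 of the 23 rose in a fit of the bright libraries alone. In dim cells none passed in either kind of fit with limma.

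PFKFB4 (chromosome 3, 48517684 to 48562774), which makes and breaks the glycolytic activator fructose 2,6-bisphosphate, was at 184, 226 and 229 in normoxic dim, 250, 363 and 265 in hypoxic dim, 236, 237 and 159 in normoxic bright and 1204, 706 and 387 in hypoxic bright libraries. The pooled effect was 1.09 ± 0.28 (adjusted p = 0.20), and in bright cells PFKFB4 rose by 1.73 ± 0.31 (limma, adjusted p = 0.0288). LDHA (chromosome 11, 18394389 to 18408218), which turns pyruvate into lactate, was at 25963 to 29644 in normoxic dim and 29730 to 31451 in hypoxic dim libraries, and at 27575, 26261 and 28932 in normoxic bright and 45435, 40046 and 32272 in hypoxic bright libraries. Both genes had hypoxic libraries apart from normoxic ones in each subset, and LDHA rose by 0.50 ± 0.10 in bright cells.

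SLC16A3, which exports lactate, was at 1885, 1758 and 1641 in normoxic bright and 3377, 2965 and 2282 in hypoxic bright libraries, a rise of 0.69 ± 0.14, with 0.31 ± 0.14 in dim cells. SLC2A3, a glucose carrier, was at 2282, 2043 and 2022 against 4287, 3510 and 2539 in bright cells, a rise of 0.67 ± 0.14, with -0.03 ± 0.14 in dim cells. The carrier SLC2A1 (0.16 ± 0.10), hexokinase HK2 (0.21 ± 0.12) and the pyruvate dehydrogenase kinase PDK1 (0.26 ± 0.17) did not pass in the pooled test, with effects of 0.37, 0.52 and 0.73 in bright and of -0.05, -0.10 and -0.21 in dim cells. The abundant PGK1 (0.15 ± 0.07) and ENO1 (0.08 ± 0.07) were at effects under 0.2.

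Of 36 other HIF target genes, 3 rose and 1 fell in the pooled test, and 11 were higher and 4 lower at an unadjusted p under 0.05, where 4.71% and 3.98% of all genes tested were. The 3 rises, those of MIR210HG, ANKRD37 and VEGFA, did not pass without the pair of libraries highest in airway markers (limma, adjusted p = 0.0554, 0.077 and 0.191) or in muscle markers (0.0746, 0.129 and 0.129), at effects of 2.56, 1.51 and 0.50 and of 2.61, 1.43 and 0.52. With the sums of 3 marker lists as covariates 1 of the 3 rises passed. In this list of other HIF target genes 1 rise was also left without normoxic dim replicate 2, normoxic bright replicate 1 or 3, hypoxic dim replicate 2, or hypoxic bright replicate 1 or 2, and 2 or 3 without any other single library. The median effect was 0.13 pooled, 0.06 in dim and 0.20 in bright cells. In bright cells 9 rose and 1 fell, where 0.478% of all genes tested rose and 0.359% fell. In dim cells TFRC fell and none rose, where 0.0332% of all genes tested fell and 0.199% rose, and with the dim libraries alone no member passed with limma. The 9 were MIR210HG, ANKRD37, VEGFA, DDIT4, BNIP3, BNIP3L, P4HA1, KDM3A and ZNF395. The list held 9 genes whose replicates scattered over 4-fold, among them CA9, a textbook HIF target on the cell surface, at 56, 1 and 20 and at 89, 81 and 4 in normoxia and at 20, 247 and 84 and at 4, 0 and 0 in hypoxia.

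**Figure D3:**
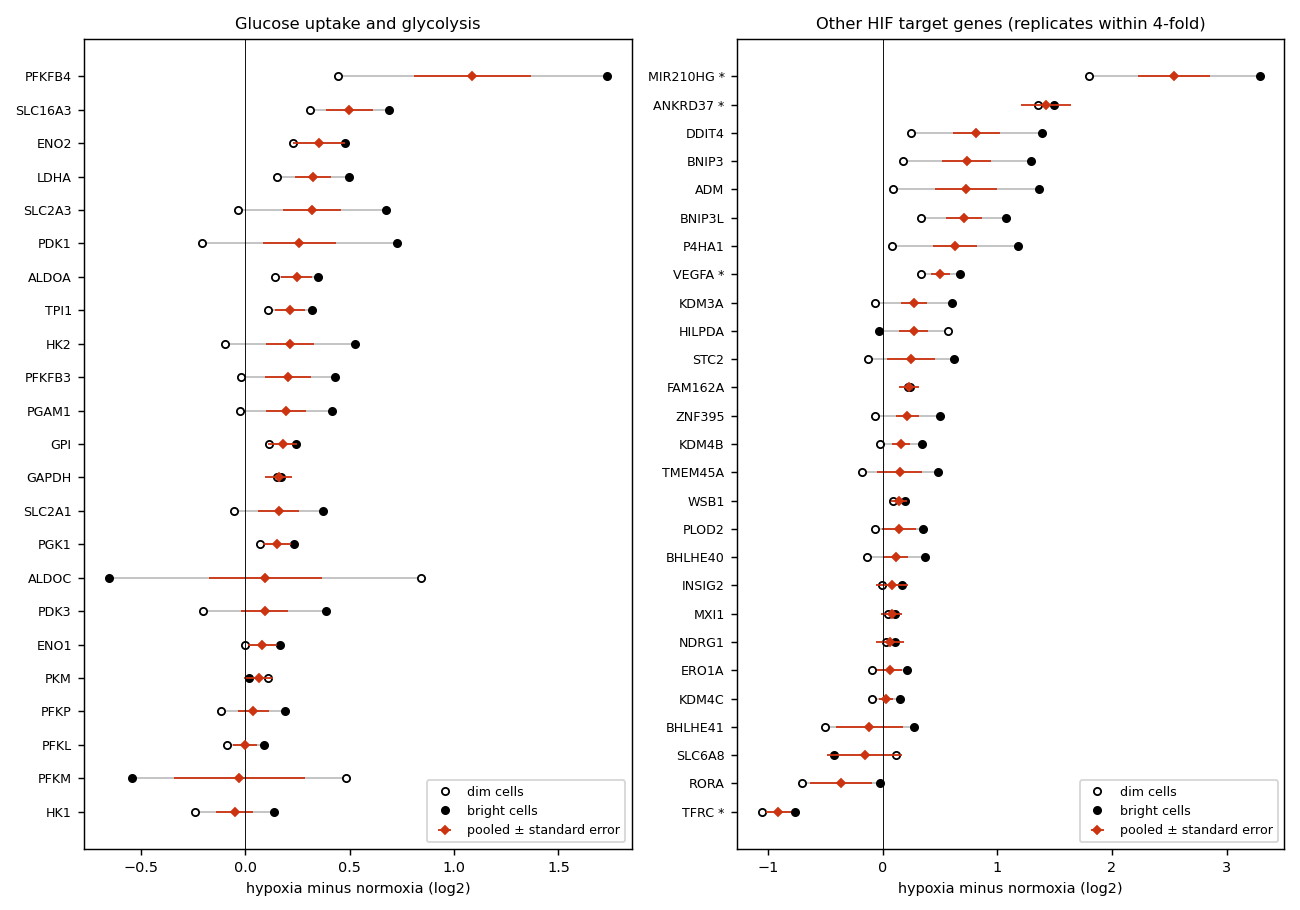
Effect of hypoxia (log2, hypoxia minus normoxia) for each gene of the glycolysis list and for the 27 genes of the HIF target list whose replicates lay within 4-fold: pooled with its standard error (red), in dim cells (open) and in bright cells (filled). Asterisks mark genes that passed the pooled test. Filled points lie to the right of open points for most genes, with ANKRD37 at 1.35 and 1.5 and DDIT4 at 0.24 and 1.39.

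DDIT4 (chromosome 10, 72273919 to 72276039), an inhibitor of mTOR signalling, was at 2267, 2289 and 2360 in normoxic dim and 2505, 3361 and 2415 in hypoxic dim libraries. In bright cells it was at 1567, 1843 and 1606 in normoxia and at 5980, 4699 and 2962 in hypoxia. The hypoxic libraries were apart and above in each subset, and DDIT4 rose by 1.39 ± 0.20 in bright cells with 0.24 ± 0.20 in dim cells, a difference that passed (adjusted p = 0.0489). BNIP3 (chromosome 10, 131967683 to 131982013), a receptor for mitophagy, was at 535, 573 and 547 in normoxic bright and 1918, 1499 and 854 in hypoxic bright libraries, and at 541 to 629 and 622 to 715 in dim libraries. BNIP3 rose by 1.29 ± 0.21 in bright cells, and its difference between subsets did not pass (adjusted p = 0.061). Its relative BNIP3L was at 1.08 ± 0.17 in bright cells, where it rose, and at 0.33 ± 0.17 in dim cells.

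P4HA1 (chromosome 10, 73007217 to 73096974), the catalytic subunit of the collagen prolyl hydroxylase, was at 1255, 1188 and 1216 in normoxic bright and 3865, 2803 and 1945 in hypoxic bright libraries, and at 1154 to 1389 and 1231 to 1403 in dim libraries. KDM3A (chromosome 2, 86440647 to 86492716), a histone demethylase that uses oxygen, was at 1976, 2224 and 2113 against 3683, 3371 and 2640 in bright cells and at 2180 to 2215 against 2031 to 2157 in dim cells. ADM, the gene of the vasodilator adrenomedullin, was at 338, 327 and 275 against 1253, 903 and 461 in bright cells, at 1.36 (adjusted p = 0.051). NDRG1, elsewhere a strong target, was at 0.06 ± 0.12 with overlapping levels of 1025 to 2346 in normoxia and 1209 to 2740 in hypoxia.

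The 3 hypoxic bright libraries differed among themselves along these genes. Replicate 1 was highest and replicate 3 lowest in 19 of 23 glycolysis genes (82.6%), in 26 of 36 other HIF target genes (72.2%) and in 8 of the 12 genes that rose (66.7%), against 22.3% of all genes tested. MIR210HG, for example, was at 652 in replicate 1 and 222 in replicate 3. Without hypoxic bright replicate 1 the pooled median of the HIF target list was 0.03 and that of the glycolysis list 0.13, and without replicate 3 they were 0.15 and 0.22. This was looked at after the values were seen.

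Among genes higher in hypoxia, the one with the largest pooled effect that did not pass, picked after the values were seen, was PPP1R3G (chromosome 6, 5085486 to 5087221), a glycogen-targeting subunit of protein phosphatase 1. It was at 0 to 2 in the 6 normoxic libraries, at 7, 5 and 6 in hypoxic dim and at 26, 20 and 20 in hypoxic bright libraries. PPP1R3G passed in bright cells (limma, adjusted p = 0.0243). Only its hypoxic bright libraries reached the minimum level for entering the comparison, so it was tested because it was high in that group. As it was also picked for its large effect, that p-value cannot be read as separate evidence of a rise, and no conclusion is drawn from it.

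Iron genes were next. All 14 tested genes of iron uptake and storage had negative pooled effects, between -1.95 and -0.001, with a median of -0.06, where 7738 of all 15057 genes were negative. TFRC passed, and 4 were lower and 0 higher at an unadjusted p under 0.05, where 3.98% and 4.71% of all genes tested were. The ferritin heavy chain FTH1 was at 76157 to 88473 in normoxic dim and 69026 to 78322 in hypoxic dim libraries, and at 49299 to 62768 and 39519 to 51954 in bright libraries (-0.27 ± 0.08, limma, adjusted p = 0.334). The light chain FTL had hypoxic libraries below normoxic ones in each subset (-0.24 ± 0.07). The iron exporter SLC40A1 was at -0.38 ± 0.28 with levels of 22 to 103.

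HMOX1, which releases iron from haem, was at 1568, 465 and 810 and at 1064, 88 and 136 in normoxia and at 253, 245 and 259 and at 57, 36 and 65 in hypoxia. The libraries were apart in each subset at -1.95 ± 0.49 (limma, adjusted p = 0.191). HMOX1, like SERPINA3, was highest in normoxic dim replicate 1 and normoxic bright replicate 1. With the sums of the same 3 marker lists as covariates its effect was -0.29. Here too that fit cannot separate oxygen from marker content.

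Of 24 genes of the antioxidant defence and the pentose phosphate pathway, none passed with limma, while 9 were lower and 0 higher at an unadjusted p under 0.05, where 3.98% and 4.71% of all genes tested were (median -0.07 pooled, 0.0018 in dim and -0.14 in bright cells). SRXN1, which repairs oxidized peroxiredoxins, was at 3505 to 3705 in normoxic dim, 2955 to 3397 in hypoxic dim, 2763 to 3236 in normoxic bright and 2261 to 2466 in hypoxic bright libraries (-0.25 ± 0.06). TXNRD1, the thioredoxin reductase, was apart downward in each subset as well (-0.23 ± 0.06). NQO1, a quinone reductase, fell in bright cells, from 1020, 1029 and 941 to 388, 425 and 586 (-1.12, limma, adjusted p = 0.0288), and was at 0.01 in dim cells. SLC7A11, which imports cystine, was at -0.71 in dim and -0.17 in bright cells.

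Respiratory chain lists had medians of opposite sign in the subsets. The 13 mitochondrially encoded subunits had a median of 0.04 pooled, 0.27 in dim and -0.21 in bright cells, with positive effects in 13 of 13 in dim and 1 of 13 in bright cells. None passed in the pooled test with limma or at an unadjusted p under 0.05. The 77 nuclear subunits of the respiratory chain had medians of 0.04, 0.19 and -0.11, with 73 positive effects in dim cells but 5 in bright cells. The 77 mitochondrial ribosomal proteins had medians of -0.0058, 0.12 and -0.14. ND2, a subunit of complex I encoded on the mitochondrial genome, was at 142569, 113278 and 120853 against 135153, 163668 and 155369 in dim and at 108585, 134196 and 117923 against 88005, 89957 and 100385 in bright libraries.

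The 79 cytosolic ribosomal protein genes had positive pooled effects in 78, where 7310 of all 15057 genes did, with a median of 0.10 pooled, 0.21 in dim and -0.0066 in bright cells, and none passed with limma, with 5 higher at an unadjusted p under 0.05 (4.71% of all genes tested). The 28 ribosome biogenesis genes had negative pooled effects in all 28, with a median of -0.10, where 7738 of all 15057 genes were negative. Their median was 0.0048 in dim and -0.16 in bright cells, with positive effects in 15 and 2 of the 28 genes. None of them passed with limma, with 6 lower at an unadjusted p under 0.05 (3.98% of all genes tested). Among them MYC, a transcription factor that drives growth, was apart downward in each subset, at 24703, 27317 and 25607 against 22894, 22286 and 21747 in dim and 27961, 26024 and 26447 against 21910, 23070 and 24820 in bright libraries (-0.21 ± 0.05, limma, adjusted p = 0.135).

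**Figure D4:**
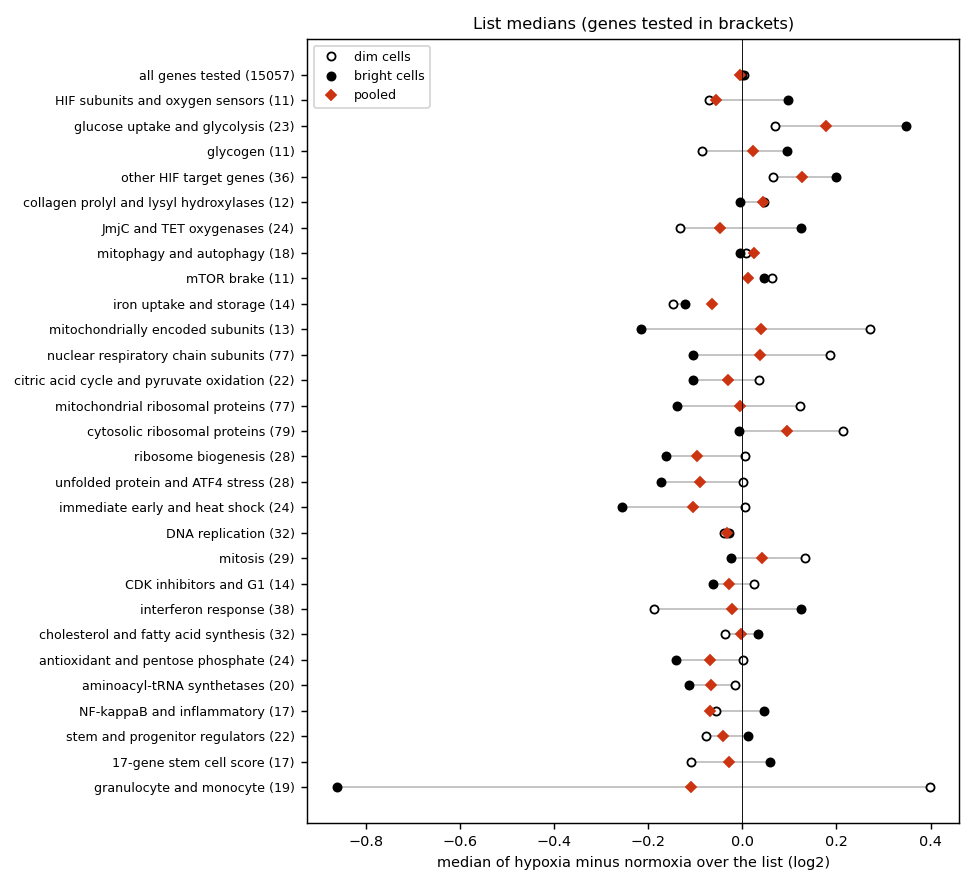
Median effect of hypoxia (log2, hypoxia minus normoxia) over the tested genes of each list other than the cell type markers, pooled (red), in dim cells (open) and in bright cells (filled), with the number of genes in brackets. Among the lists drawn the glycolysis list has the highest pooled median, 0.18, and the mitochondrially encoded and nuclear respiratory lists have positive medians in dim and negative medians in bright cells.

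Stress genes were examined as well. Of 28 genes of the unfolded protein and ATF4 stress response 0 passed with limma and 5 were lower at an unadjusted p under 0.05, as were 3.98% of all genes tested, including the transcription factor ATF3 at 209, 171 and 206 against 151, 124 and 136 in dim and 84, 64 and 76 against 39, 25 and 47 in bright libraries (-0.77 ± 0.17, adjusted p = 0.135). The chaperone HSPA5 (-0.16 ± 0.05) and the phosphatase subunit PPP1R15A (-0.20 ± 0.07) were also lower at an unadjusted p under 0.05. Of 24 immediate early and heat shock genes 0 passed and 6 were lower at that level. The stress response list had a median of 0.0012 in dim and -0.17 in bright cells, with positive effects in 14 and 5 of 28 genes. The immediate early and heat shock list had medians of 0.0062 and -0.26, with positive effects in 13 and 3 of 24 genes.

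The cell cycle and remaining lists held no passing gene apart from SMIM24. None of 32 DNA replication, 29 mitosis or 14 CDK inhibitor and G1 genes passed with limma, with medians of -0.03, 0.04 and -0.03, and with 1 replication gene and 1 mitosis gene higher and 1 CDK inhibitor lower at an unadjusted p under 0.05. None of 38 interferon-response, 32 cholesterol and fatty acid synthesis, 20 aminoacyl-tRNA synthetase, 11 glycogen, 11 mTOR brake, 18 mitophagy and autophagy, 24 JmjC and TET oxygenase, 12 collagen hydroxylase, 22 stem and progenitor, 19 granulocyte and monocyte or 17 inflammatory genes passed in the pooled test. At an unadjusted p under 0.05 these lists held, in that order, 1, 0, 0, 1, 1, 2, 1, 1, 1, 2 and 1 genes higher and 0, 1, 3, 2, 1, 3, 0, 1, 1, 3 and 2 lower. For these and the cell cycle lists, the shares over all genes tested were 4.71% higher and 3.98% lower. Lists share members, so their counts are not separate. BNIP3, DDIT4 and KDM3A of the HIF target list were counted again in the mitophagy, mTOR brake and JmjC lists. HMOX1 was in both the iron and the antioxidant list. The interferon list had a median of -0.19 in dim and 0.12 in bright cells, with positive effects in 7 and 35 of 38 genes. The JmjC and TET list had medians of -0.13 and 0.12, with positive effects in 2 and 17 of 24 genes. The difference, bright minus dim, passed upward for 5 and 4 genes of these 2 lists, where 1.1% of all genes tested did. Of the 17 genes of the stem cell score SMIM24 was the one that passed in the pooled test. The genes were counted singly and no score was computed.

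CXCL8, a chemokine that attracts neutrophils, was at 275, 171 and 193 against 156, 168 and 145 in dim and fell in bright cells from 88, 112 and 159 to 64, 46 and 44, with a pooled effect of -0.80 ± 0.20. IL1RL1, the interleukin-33 receptor, fell in dim cells from 221, 222 and 184 to 106, 77 and 110, and was at 604, 442 and 646 against 401, 406 and 454 in bright cells (-0.75 ± 0.15 pooled, limma, adjusted p = 0.0938). CD33, a surface receptor of myeloid cells, was at 36 to 52 against 46 to 65 in dim and 82 to 107 against 134 to 187 in bright libraries (0.54 ± 0.16).

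The effect of oxygen was also compared between the subsets. The dim and bright effects, which share no library, had a Pearson correlation of -0.37 across the 15057 genes, -0.317 without the 791 genes whose replicates scattered over 4-fold, and 39.7% of genes had the same sign. Genes are not independent replicates, and all effects of a subset share its 6 libraries. It lay between -0.494 and -0.238 when each library was left out in turn. The difference of the effects passed for 355 genes (2.36%), 165 of them (1.1%) higher in bright minus dim and 190 (1.26%) lower.

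Genes that passed in 1 subset were then followed in the other. Of the 72 genes that rose in bright cells 47 (65.3%) had a positive effect in dim cells, with a median of 0.11, where 50.5% of all genes did. Of the 54 genes that fell in bright cells 8 (14.8%) had a negative effect in dim cells, where 49.4% of all genes did. Of the 30 genes that rose in dim cells 5 (16.7%) had a positive effect in bright cells, where 49.8% of all genes did. There were 10 genes that rose in dim and fell in bright cells. Leaving out genes with scattered replicates, 7 of 34 (20.6%) and 5 of 22 (22.7%) shared the direction. Of the genes that fell in bright cells 20 of 54 had scattered replicates, and of those that rose there 0 of 72, against 791 of all 15057 genes.

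**Figure D5:**
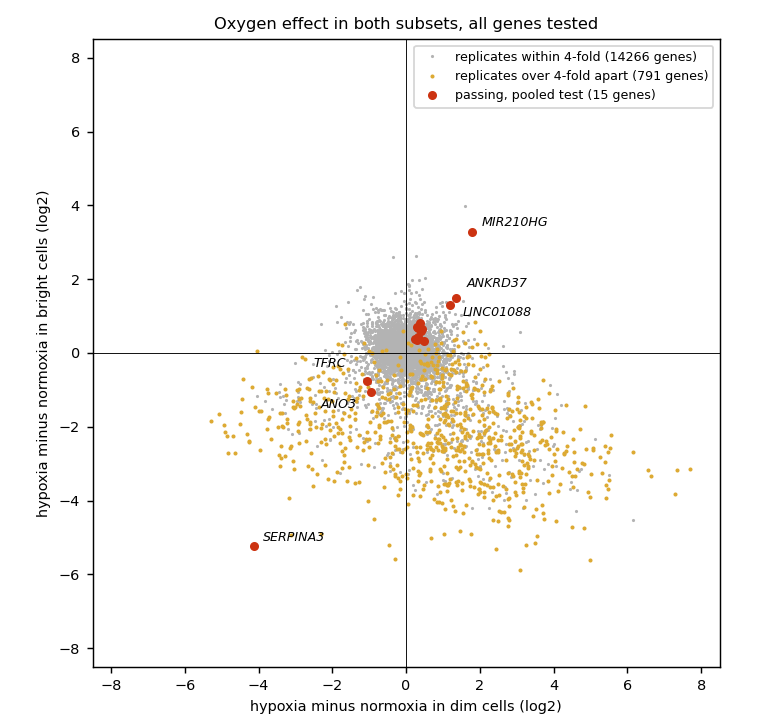
Effect of hypoxia (log2, hypoxia minus normoxia) in dim cells (horizontal) against bright cells (vertical) for all 15057 genes tested, with the 791 genes of scattered replicates in yellow and the 15 passing genes in red. The passing genes lie in the quadrants of equal sign, and the yellow points spread to the lower right, where effects were positive in dim cells and negative in bright ones.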

How the data were processed

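RNA sequencing of mRNA from total RNA covered 12 libraries of sorted KG1a cells, read as 150 bp pairs per the labels' protocols. Trimmomatic 0.39 served for trimming and STAR 2.4.2a for alignment to hg38, per the submitters' processing notes. How reads were counted, with which annotation and strand, is not given in the sources used here. Each deposited value is a score, namely a gene's read count in a library that the authors divided by a library size factor and rounded, as read from the values (median ratios to the gene-wise geometric mean of 1.00303 to 1.00422). No test for raw counts and no counting interval was therefore used.

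Log2 of the value plus 1 was modelled in R 4.3.3 by limma 3.58.1 on subset and oxygen over all 12 libraries (9 residual degrees of freedom, trended empirical Bayes). Effects within dim and bright cells and their difference came from a fit of 4 group means. The threshold was a Benjamini-Hochberg adjusted p under 0.05. The fit was tested on simulated data with planted changes larger than most rises reported here. Noise was drawn separately for each gene. That test thus does not cover smaller changes or uneven content of other cell types.

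Members, gene lists and tests were chosen with earlier results of these data known. Named were passing genes with the largest effects (up to 12 per direction, mean 100 or more at the oxygen level where the gene was higher and replicates apart in each subset and within 4-fold), up to 3 per direction with replicates over 4-fold apart, up to 3 passing members per list and direction, the HIF pathway genes and the sort markers. Other genes were chosen after their values were seen. Of gene IDs 97.7% matched RefSeq, and 27 symbols turned into dates by a spreadsheet were read by ID. All libraries carry the same batch label. Some items are not reported here.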

Additional observations from a re-analysis of the deposited data

Results flagged for a closer look

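In 9 of the named genes the difference of the oxygen effect between bright and dim cells itself passed (limma, adjusted p over all genes tested), and each was picked out for that reason. These genes were named with their values known. Their adjusted p for the difference (limma) ran from 0.006 for SIGLEC6 to 0.0489 for DDIT4. Whether each difference held in other settings was not tested, while the count of genes passing for the difference varied widely between settings, as given below.

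In 4 of the HIF target genes that passed the bright effect exceeded the dim effect, and in 1 other of that list, VLDLR, the difference passed in the opposite direction. DDIT4 differed by 1.14 ± 0.28 (adjusted p = 0.0489), with 0.24 in dim and 1.39 in bright cells. P4HA1 differed by 1.10 ± 0.25 (adjusted p = 0.041), with 0.08 and 1.18. KDM3A differed by 0.67 ± 0.14, with -0.06 and 0.61, and ZNF395, a transcription factor gene induced by hypoxia, by 0.56 ± 0.13, with -0.07 and 0.50.

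SIGLEC6, a sialic acid receptor of immune cells, differed by 1.83 ± 0.26 (adjusted p = 0.006). It was at 545, 610 and 519 in normoxic bright and 2212, 2082 and 1252 in hypoxic bright libraries, and at 411, 475 and 375 and at 358, 353 and 432 in dim libraries, so that the rise was in 3 of 3 bright libraries and the dim libraries overlapped. NYNRIN, a member of the 17-gene stem cell score, differed by 0.76 ± 0.18, with -0.16 in dim and 0.60 in bright cells. TET1, which oxidizes methylated cytosine, differed by 0.90 ± 0.16, with -0.39 in dim, where levels of 294 to 338 became 231 to 278, and 0.52 in bright cells, where levels of 395 to 417 became 540 to 619.

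ND2 differed by -0.64 ± 0.15, with 0.27 in dim and -0.37 in bright cells. The keratin gene KRT18 differed by -10.83 ± 1.97, with 7.69 in dim and -3.14 in bright cells. Its levels were 11, 6 and 4 in normoxic dim, 506, 4099 and 1781 in hypoxic dim, 824, 1819 and 62 in normoxic bright and 72, 381 and 4 in hypoxic bright libraries, and it is one of the airway epithelium markers whose sums were high in the same libraries.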

How the results depend on the processing

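The main count was 15 genes, 12 higher and 3 lower. It was 0 without limma's trend, without the subset covariate and against a 1.5-fold change, 3 at an adjusted p under 0.01 (2 higher, 1 lower), 24 with array weights (19 and 5), 8 with no filter (7 and 1), 23 at a mean of at least 50 (19 and 4), 34 with 4 group means (28 and 6), 226 with bright libraries only (110 and 116, with 12 of the 15) and 13 with dim libraries only (9 and 4, with 0 of the 15). It was 3 without the libraries highest in airway markers (2 and 1), 2 without those highest in muscle markers (1 and 1) and 8 with marker sums as covariates (6 higher). Without replicate-discordant genes 19 were higher. Added after seeing the data were 4 group means without replicate-discordant genes (66, of them 50 and 16) and leaving out the 4 libraries highest in airway markers (1 gene, 0 higher and 1 lower). Leaving out each library gave 3 to 19 genes, 2 to 15 higher and 1 to 4 lower. For the difference between subsets 355 genes passed, 162 with a pseudocount of 10 and 51 to 1520 with a library left out. With the replicate block 6 genes passed (5 higher, 1 lower). The numbers were not taken to pair the libraries, since the deviations of same-numbered libraries correlated at -0.168 to 0.244 and over 0.1 in 7 of 18 pairs. The causes were not tested. Of the 34 alternatives TFRC passed in 30, LINC01088 in 29, MIR210HG in 27, ZMYND8 in 24, C1orf228 in 23, VGLL4 in 19, NARF in 18, ANKRD37 in 16, SMIM24 and CACNA2D4 in 13, VEGFA and ANO3 in 12 and CCDC162P and SIGIRR in 9, while SERPINA3 passed in 11 of 32. No passing gene changed direction in any of them. Depth limits the low genes such as SERPINA3 in hypoxia.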
